A study of Mus musculus with 13 samples.

Results

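Chromosome 15 genes of the mouse were followed across 13 RNA sequencing libraries of thymic lymphomas and normal thymus. The genes were chosen by position and by level, as those that the deposited table places on chromosome 15 and lists at 10 or more in 3 or more libraries. Genes named Rpl, Rps, Col, Krt or Nduf and the genes Myc, Il7r, Il2rb, Espl1 and Racgap1 were left out by name. This left 561 of the 15872 genes of the genome that passed the same filter. Of the 1249 chromosome 15 genes in the table, 666 were under the filter, of which 309 were listed at 0 in all libraries, and 22 that passed it were left out by name. The filter used the values but not the difference between groups, and it was applied alike to all chromosomes. At its edge, 6 genes entered with a third-highest value of 10, among them Mafa and Prph, and 10 stayed out with a third-highest value of 9. Of the 561 genes, 502 (89.5%) were protein coding, 15 were processed pseudogenes and 14 were lincRNAs.

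The libraries came from 5 Atm-/- lymphomas, 5 Rag2c/c p53-/- lymphomas and 3 wild-type (WT) thymuses, each from a different mouse. Atm-/- mice lack the ATM kinase, which signals DNA double-strand breaks, in all cells, and those used here were of strain 129S6/SvEv. Rag2c/c p53-/- mice lack p53 and carry a RAG2 protein truncated at its C terminus, the RAG2 core, and their background was mixed, of C57BL/6 and 129S6/SvEv. WT thymuses were taken from C57BL/6 mice and were re-used from an earlier series, so strain and series of origin cannot be told apart from genotype and tumor. The WT samples are thymus by title and tissue label, while their source label reads thymic lymphoma, as it does for all 13 samples. The labels name no treatment, and ages of the mice were not given in the sources used here. Xist, the RNA of the inactive X chromosome, was counted in the WT thymuses and Atm-/- lymphomas 1 to 3 and the Y-linked Ddx3y in the other lymphomas, so sex also differed with group. All 10 T cell markers looked at had a mean of at least 10 in each group, with a summed value of 122946 to 195970 in WT thymus, 79642 to 152367 in Atm-/- lymphomas and 94827 to 174401 in Rag2c/c p53-/- lymphomas. Atm RNA stood at 208 to 732 in the Atm-/- lymphomas and at 1559 to 2274 in WT thymus, and Trp53 RNA at 2018 to 5461 in Rag2c/c p53-/- lymphomas against 4387 to 6341 in WT thymus. RNA of a disrupted gene can persist, so these levels are only a partial check of genotype.

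The values are normalised read counts per gene, which the authors scaled by size factors and then rounded to integers. Column totals lay between 19788898 and 21591289 and no longer showed depth, which was estimated from the worth of a single read at 6.29 to 34.2 M reads in the 11 libraries where it could be resolved. WT thymus 2, Atm-/- lymphoma 2 and Rag2c/c p53-/- lymphoma 2 were the shallowest of their groups, and leaving out these 3 shallow libraries was an alternative chosen after seeing the data. Pearson's r of log2 values between libraries of a group was 0.979 to 0.996 for WT thymus, 0.921 to 0.967 for Atm-/- and 0.914 to 0.962 for Rag2c/c p53-/- lymphomas. In bulk tissue, fewer cells of a type and less RNA per cell cannot be told apart.

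As background, the amount of RNA of a gene often follows the number of copies of its chromosome, so a gained chromosome can be seen as a small rise spread over most of its genes. Gain of chromosome 15, which carries Myc, is a known recurring change of mouse T cell lymphomas. The chromosome also carries the Ly6 family of cell surface proteins, subunits of the translation initiation factor eIF3, cohesin and mTORC2 components and Ku70, which binds broken DNA ends. DNA copy number was not measured in the data used here. For scale, 3 copies in place of 2 correspond to 0.585 on the log2 scale.

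To show the kind of sequence from which these genes are transcribed, 250 bases upstream of the annotated start are given for 5 genes that the results below turn on, from RefSeq on GRCm38, written on the strand of the gene. Xrcc6 and Rictor were higher and lower than in WT thymus in all lymphomas, Fbln1 and Ly6c1 were among the genes with the widest differences, and Apobec3 went in opposite directions in the lymphomas. The stretches lie at chr15:82016119-82016368 (+ strand, Xrcc6), chr15:85205699-85205948 (+, Fbln1), chr15:75048838-75049087 (- strand, Ly6c1), chr15:6708131-6708380 (+, Rictor) and chr15:79892158-79892407 (+, Apobec3). The stretches of Fbln1 and Rictor end just before the gene start of the table, while the table has Xrcc6 and Apobec3 start upstream of theirs, at 81987835 and 79891659. Capitals mark the E-box CACGTG, the GC box GGGCGG and the TATA motif TATAAA, each looked for on both strands.
Xrcc6: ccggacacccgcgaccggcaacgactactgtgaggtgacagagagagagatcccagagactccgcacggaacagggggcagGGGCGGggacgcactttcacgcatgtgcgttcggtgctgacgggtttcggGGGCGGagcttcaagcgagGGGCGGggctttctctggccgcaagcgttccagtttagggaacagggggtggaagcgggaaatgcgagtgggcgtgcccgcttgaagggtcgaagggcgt
Fbln1: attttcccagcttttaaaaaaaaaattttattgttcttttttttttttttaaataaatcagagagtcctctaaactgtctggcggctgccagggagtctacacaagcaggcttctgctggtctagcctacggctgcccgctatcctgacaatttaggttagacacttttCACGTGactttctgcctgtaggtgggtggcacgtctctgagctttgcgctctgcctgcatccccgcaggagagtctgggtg
Ly6c1: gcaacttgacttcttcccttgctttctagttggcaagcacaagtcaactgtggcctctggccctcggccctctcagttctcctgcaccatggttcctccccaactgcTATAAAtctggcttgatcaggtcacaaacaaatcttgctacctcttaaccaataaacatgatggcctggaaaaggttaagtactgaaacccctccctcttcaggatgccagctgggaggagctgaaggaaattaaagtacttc
Rictor: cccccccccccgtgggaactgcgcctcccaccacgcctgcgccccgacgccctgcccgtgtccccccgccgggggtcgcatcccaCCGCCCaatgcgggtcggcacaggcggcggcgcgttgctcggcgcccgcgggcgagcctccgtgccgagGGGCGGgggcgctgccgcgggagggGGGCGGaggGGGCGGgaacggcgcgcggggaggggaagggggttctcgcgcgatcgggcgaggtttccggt
Apobec3: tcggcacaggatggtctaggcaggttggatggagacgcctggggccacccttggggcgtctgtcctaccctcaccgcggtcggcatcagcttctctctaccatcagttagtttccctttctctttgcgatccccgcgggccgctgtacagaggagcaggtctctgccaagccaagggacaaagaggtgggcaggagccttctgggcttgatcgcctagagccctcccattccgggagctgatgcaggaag
The Rictor stretch was 81.2% G and C with 4 GC boxes, and that of Xrcc6 was 65.2% with 3. The Fbln1 stretch was 46.4% G and C and held an E-box and no GC box. The Ly6c1 stretch, 48.4% G and C, held a TATA motif, and none of these motifs was found in the Apobec3 stretch (61.2%). In the genome, 6.02% of 32851 promoters of this length held the E-box, 32.7% the GC box and 12.4% the TATA motif. Only 280 of the 561 chromosome 15 genes could be matched to a promoter by symbol. Of those 280, 7.5% held the E-box, 66.8% the GC box and 4.29% the TATA motif. With so few matched, these shares describe the matched genes alone. The promoters of the genome were not limited to genes that passed the filter, so the sets are not alike. Their median G and C was 52.4%, against 62.8% for the 280.

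The first question was whether the chromosome 15 genes stood apart as a block. For each library, the shift of chromosome 15 was taken as the median over its 561 genes of the log2 difference from the mean of the WT thymuses, minus the same median over all 15872 genes. A WT thymus was set against the other two. The shift was 0.56, 0.13, 0.45, 0.56 and 0.48 in Atm-/- lymphomas 1 to 5, a mean of 0.435 ± 0.178 (SD, n = 5), or 1.35-fold. It was 0.29, 0.61, 0.46, 0.34 and 0.53 in Rag2c/c p53-/- lymphomas 1 to 5, a mean of 0.448 ± 0.133 (SD, n = 5), or 1.36-fold. The 3 WT thymuses stood at -0.01, 0.02 and -0.02. All 10 lymphomas were above all 3 thymuses, and the ranges of the lymphoma groups overlapped. Atm-/- lymphoma 2 was the lowest of the 10 and stood apart from the other 4 of its group, which lay between 0.45 and 0.56. These shifts are given as a description without a test, since the chromosome was picked with results of these data known.

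**Figure D1:**
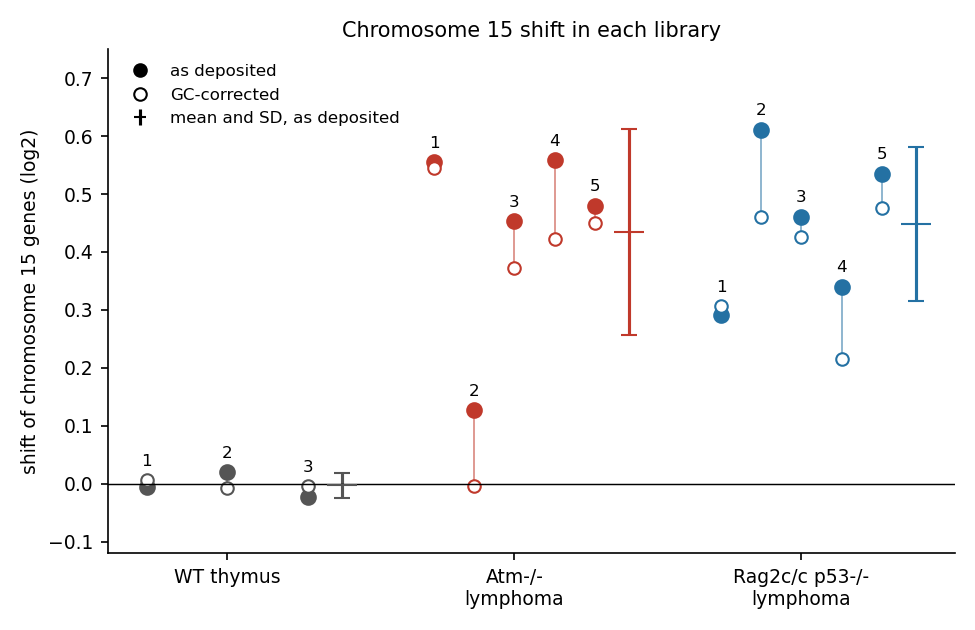
Shift of chromosome 15 in each library (log2, linear axis) by group, numbered by replicate. Filled points are values as deposited, open points those corrected for G and C content, and bars the mean and SD of the filled points; filled points of the 10 lymphomas lie between 0.13 and 0.61 and those of the WT thymuses between -0.02 and 0.02.

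The share of the 561 genes above their WT mean was 70.2%, 52.1%, 64.0%, 66.3% and 66.8% in Atm-/- lymphomas 1 to 5 and 66.1%, 64.0%, 72.2%, 61.9% and 69.9% in Rag2c/c p53-/- lymphomas 1 to 5. Among tested genes of other chromosomes the share lay between 47.8% and 49.3% in the 10 lymphomas. The shift was therefore carried by many genes, with the exception of Atm-/- lymphoma 2, where the share was close to that of the rest of the genome. It was of like size at all levels of expression. With the 561 genes divided by their mean value into 3 groups of 187, each set against tested genes of other chromosomes in the same range of values, the mean shift over Atm-/- lymphomas was 0.48, 0.363 and 0.448 from the low to the high group, and over Rag2c/c p53-/- lymphomas it was 0.5, 0.427 and 0.434. In the high group the lowest mean value was 1710, far from the filter at 10.

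The G and C content of transcripts moved with the lymphomas too. Chromosome 15 genes had a median of 52.15% G and C against 49.71% for tested genes of other chromosomes. In those other genes, the fifth richest in G and C stood above the fifth poorest by 0.48 to 1.08 (log2) in the lymphomas and by -0.14 to 0.22 in WT thymus. After the values were corrected for G and C content (GC-corrected), an alternative chosen after seeing the data, the shift was 0.55, -0.004, 0.37, 0.42 and 0.45 in Atm-/- lymphomas 1 to 5 and 0.31, 0.46, 0.43, 0.22 and 0.48 in Rag2c/c p53-/- lymphomas 1 to 5. Thus 9 of the 10 lymphomas stayed above all WT thymuses, and Atm-/- lymphoma 2 did not.

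The same shift was computed for each of 20 chromosomes, 1 to 19 and X. Chromosome 15 was the highest of the 20 in 7 of 10 lymphomas, which were Atm-/- lymphomas 1, 3, 4 and 5 and Rag2c/c p53-/- lymphomas 2, 3 and 5. In Rag2c/c p53-/- lymphomas 1 and 4, chromosome 4 was higher, at 0.55 and 0.39, and chromosome 15 ranked 3 and 2. Chromosome 4 was the next highest in the other Rag2c/c p53-/- lymphomas, at 0.36, 0.40 and 0.37, and lay between 0.03 and 0.18 in the Atm-/- lymphomas. In Atm-/- lymphoma 2, chromosome 7 was the highest at 0.24 and chromosome 15 ranked 3. Chromosome 14 was the lowest in Atm-/- lymphomas 1, 4 and 5, at -0.68, -0.26 and -0.64. No chromosome moved by more than 0.0506 in a WT thymus. With values corrected for G and C content, chromosome 15 was the highest in the 7 lymphomas named, and ranked 10 in Atm-/- lymphoma 2, 3 in Rag2c/c p53-/- lymphoma 1 and 4 in Rag2c/c p53-/- lymphoma 4.

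**Figure D2:**
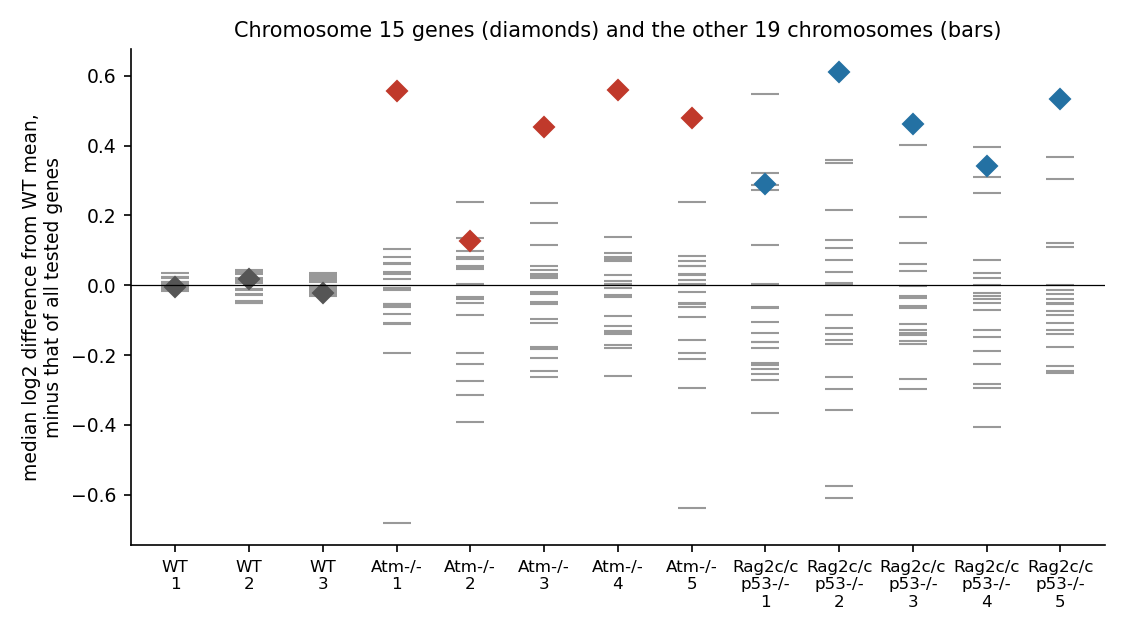
Shift of chromosome 15 (diamonds) and of each of the other 19 chromosomes (grey bars), in log2 units relative to all tested genes, in each of the 13 libraries along the horizontal axis. The diamond is the highest mark in 7 of 10 lymphomas, and the marks of the WT thymuses lie within 0.0506 of 0.

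The next question was where on the chromosome the higher values lay. In stretches of 10 Mb with at least 20 genes, the mean shift over Atm-/- lymphomas was 0.114 at 0 to 10 Mb (30 genes), 0.458 at 30 to 40 Mb (44 genes) and 0.418 at 50 to 60 Mb (37 genes). It was 0.582 at 70 to 80 Mb (146 genes), 0.464 at 80 to 90 Mb (116 genes), 0.403 at 90 to 100 Mb (80 genes) and 0.191 at 100 to 110 Mb (56 genes). In the same order, Rag2c/c p53-/- lymphomas stood at 0.0197, 0.422, 0.355, 0.631, 0.528, 0.429 and 0.227. Among these stretches the first and the last were thus the lowest in both lymphomas. This order moved with the G and C content of the stretches, whose median was 44.1% at 0 to 10 Mb and 55.7% at 70 to 80 Mb. With values corrected for it, the stretch at 0 to 10 Mb stood at 0.365 in Atm-/- lymphomas and 0.31 in Rag2c/c p53-/- lymphomas, the one at 70 to 80 Mb at 0.362 and 0.375, and the one at 100 to 110 Mb at 0.0156 and 0.112. The low value at the far end therefore remained after the correction in both lymphomas. At the near end it did not remain in Atm-/- lymphomas, where the stretch at 80 to 90 Mb was lower, at 0.293. In Rag2c/c p53-/- lymphomas the near end stayed lower than all these stretches but the last, the next being 0.358 at 80 to 90 Mb. Corrected values of the near end ranged from -0.0753 in Atm-/- lymphoma 3 to 0.884 in Atm-/- lymphoma 4. Stretches at 10 to 20, 20 to 30, 40 to 50 and 60 to 70 Mb held 16, 9, 9 and 18 genes and are not read here. Uncorrected, they stood at 0.644, -0.792, 0.635 and 0.285 in Atm-/- lymphomas and at 0.6, -0.136, 0.419 and 0.131 in Rag2c/c p53-/- lymphomas. The order given above therefore holds only among stretches with at least 20 genes.

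Along the chromosome, 108 windows of 25 consecutive genes were also taken, moved by 5 genes. The median of a window was above 0 in 103, 65, 98, 104 and 104 of them in Atm-/- lymphomas 1 to 5 and in 106, 101, 105, 101 and 104 in Rag2c/c p53-/- lymphomas 1 to 5. In WT thymuses 1 to 3 it was above 0 in 49, 69 and 33. Atm-/- lymphoma 2 was again the exception, and its lowest window stood at -1.05. The highest mean window ran from Adsl to Nhp2l1, at 0.994 in Atm-/- lymphomas and 0.854 in Rag2c/c p53-/- lymphomas. The lowest ran from Tubgcp6 to Abcd2, at -0.356 and -0.283. It lay at 89.1 to 91.2 Mb, inside the chromosome, so low values were not limited to its ends. Corrected for G and C content, the highest stood at 1.03 and 0.866 and the lowest at -0.507 and -0.332. Neighbouring windows share genes and are not independent.

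**Figure D3:**
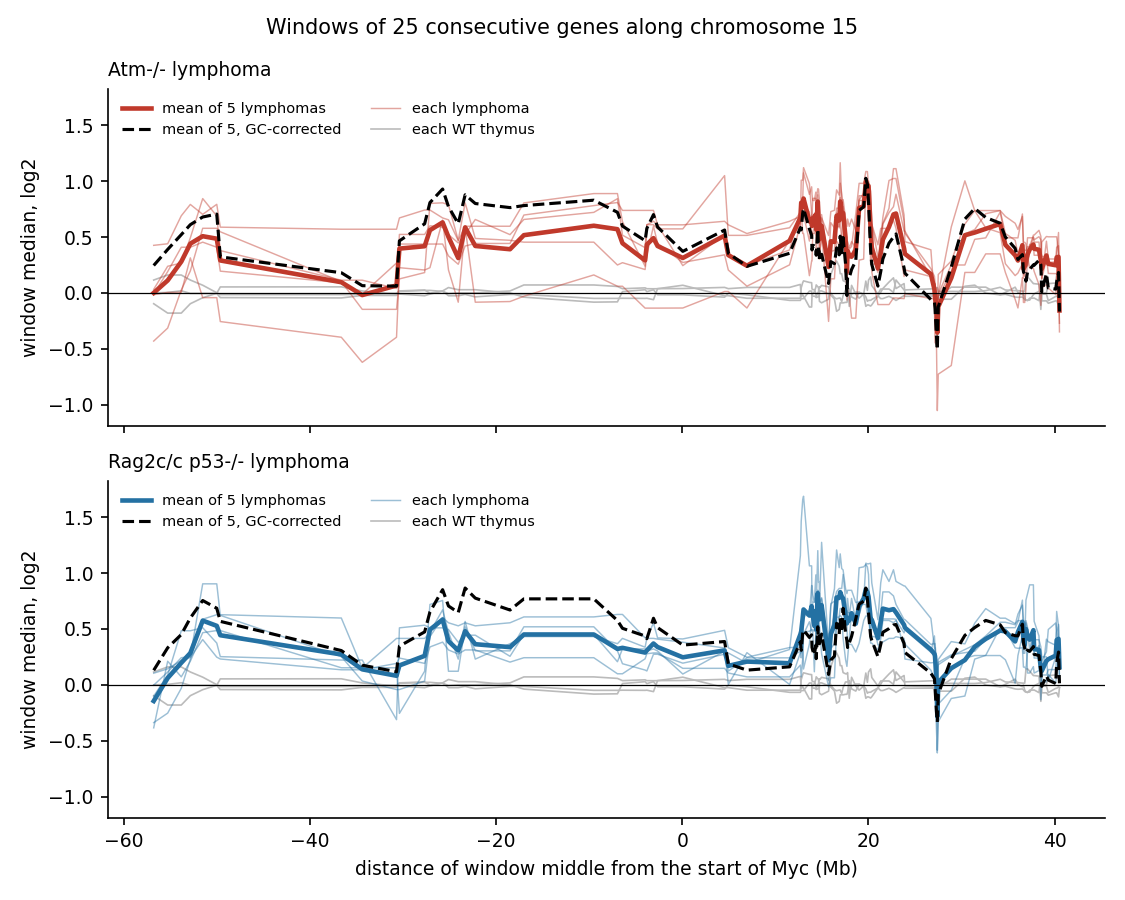
Shift (log2) of windows of 25 consecutive chromosome 15 genes, by distance of the middle of the window from the start of Myc in Mb, with Atm-/- lymphomas above and Rag2c/c p53-/- lymphomas below. Thin lines are lymphomas, thick lines their mean, dashed lines the mean corrected for G and C content and grey lines the WT thymuses; 98 to 106 of 108 windows lie above 0 in 9 lymphomas and 65 in Atm-/- lymphoma 2.

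Single genes were then tested. A gene was called at any fold at an adjusted p under 0.05 (limma on log2 of value plus 1, all 15872 genes), and by the study's rule where the log2 fold change was also at least 1 in size and a group mean at least 10. Only the cutoffs of that rule come from the paper, which used them with DESeq2 and for other lymphomas. In Atm-/- lymphomas, 196 of the 561 genes (34.9%) were higher than in WT thymus at any fold against 21% of all tested genes, and 67 (11.9%) were lower against 23.6%. By the study's rule 112 (20%) were higher against 12.6%, and 49 (8.73%) were lower against 17%. In Rag2c/c p53-/- lymphomas, 187 (33.3%) were higher at any fold against 17.5%, and 59 (10.5%) were lower against 19.7%. By the study's rule 98 (17.5%) were higher against 9.77% and 40 (7.13%) lower against 13.9%. Without WT thymus 1 or 3, the number lower at any fold in Rag2c/c p53-/- lymphomas was 37 or 36. The share over all tested genes, which can move as well, is not given for these settings. In both lymphomas the chromosome thus held more higher genes and fewer lower genes than the genome did. Where leaving out a library ended a call of a gene named below, that library is named with the highest adjusted p found. Where a pair of log2 fold changes is given for a gene, the first is that of Atm-/- lymphomas and the second that of Rag2c/c p53-/- lymphomas, both against WT thymus. The lymphomas share the 3 WT thymuses, so the comparisons are not independent of each other. Some genes reached the filter only through libraries where they were high. Nov, Gm10020 and Gm7125 did so through Atm-/- lymphomas, Zdhhc25 through Rag2c/c p53-/- lymphomas and Wisp1, Adamts20, Grhl2 and Kdelr3 through lymphomas. Apol9b, Gm9522 and I830127L07Rik did so through WT thymus. For such genes the p-values are given as a description.

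Across the 561 genes the median log2 fold change was 0.388 in Atm-/- lymphomas and 0.397 in Rag2c/c p53-/- lymphomas, against -0.0191 and -0.0176 over all tested genes. Fold changes above 0 were found for 370 genes (66%) in Atm-/- lymphomas against 49.4% of all, and for 365 (65.1%) in Rag2c/c p53-/- lymphomas against 49.3%. Small rises from 0.25 to 1 were found for 30.7% against 22.5% in Atm-/- and 34.9% against 24.4% in Rag2c/c p53-/- lymphomas. Rises of at least 1 were also more frequent than in the genome, at 25.5% against 17.7% and 21.7% against 14.6%. The higher values were thus not limited to small rises. Falls of at least 1 were rarer than in the genome, at 12.3% against 21.7% and 11.1% against 19.4%. All 10 lymphomas lay above all 3 WT thymuses for 150 genes (26.7%, against 13.6% of all tested genes) and below them for 51 (9.09%, against 18.2%).

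The genes with the widest differences from WT thymus are given first. Fbln1, which encodes the matrix protein fibulin 1 (chromosome 15 from 85205949 to 85286535), was listed at 145, 156 and 148 in the WT thymuses, 6185, 1918, 5962, 3189 and 6867 in the Atm-/- lymphomas and 4717, 9473, 3899, 11805 and 6391 in the Rag2c/c p53-/- lymphomas. Every lymphoma was above every thymus, with a log2 fold change of 4.85 ± 0.42 (adjusted p = 3.4e-06) in Atm-/- lymphomas and 5.47 ± 0.42 (adjusted p = 2.8e-06) in Rag2c/c p53-/- lymphomas (estimate ± SE here and below). The values of Wisp1 were 2, 0 and 3 in the WT thymuses, 2277, 598, 1177, 28 and 1164 in the Atm-/- lymphomas and 26, 17, 44, 400 and 84 in the Rag2c/c p53-/- lymphomas. The gene encodes a matricellular protein of the CCN family, as does Nov. Wisp1 was higher by 7.93 ± 1.26 (adjusted p = 0.0003) in Atm-/- lymphomas and 4.70 ± 1.26 (adjusted p = 0.011) in Rag2c/c p53-/- lymphomas, and the latter call was lost without WT thymus 2 (adjusted p up to 0.054) and without the 3 shallow libraries. The values of Nov were 1, 0 and 0 in the WT thymuses, 275, 9, 251, 43 and 129 in the Atm-/- lymphomas and 5, 3, 6, 1 and 22 in the Rag2c/c p53-/- lymphomas. Nov was higher in Atm-/- lymphomas by 6.04 ± 1.01 (adjusted p = 0.00044) and did not pass in Rag2c/c p53-/- lymphomas, at 2.25 ± 1.01 (adjusted p = 0.096). Adamts20, a secreted metalloprotease, stood at 7, 0 and 5 in the WT thymuses, 344, 121, 115, 113 and 79 in the Atm-/- lymphomas and 211, 54, 176, 631 and 397 in the Rag2c/c p53-/- lymphomas, and was higher by 5.21 ± 0.80 (adjusted p = 0.00024) and 5.92 ± 0.80 (adjusted p = 0.00016). The 6 fibroblast markers (Col1a1, Col1a2, Col3a1, Sparc, Dcn and Pdgfrb) summed to 437 to 478 in WT thymus, 4430 to 19742 in Atm-/- lymphomas and 2074 to 3967 in Rag2c/c p53-/- lymphomas, with all 6 at a mean of at least 10 in each group. The markers did not all stand above WT thymus alike. Dcn, at 50 to 55 in WT thymus, stood at 47 to 481 in Atm-/- and 38 to 246 in Rag2c/c p53-/- lymphomas, and Pdgfrb made up 3076 of the highest Rag2c/c p53-/- sum. Atm-/- lymphoma 4 had the highest sum, 19742, and the lowest Wisp1 value of its group, 28. The part of such cells in the result was not tested.

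The values of Grhl2 were 10, 3 and 5 in the WT thymuses, 1018, 438, 270, 145 and 947 in the Atm-/- lymphomas and 200, 243, 160, 284 and 642 in the Rag2c/c p53-/- lymphomas. Grhl2 encodes a transcription factor of epithelia, and was higher by 6.11 ± 0.63 (adjusted p = 1.4e-05) in Atm-/- lymphomas and 5.40 ± 0.63 (adjusted p = 5.7e-05) in Rag2c/c p53-/- lymphomas. The 6 thymic epithelial markers summed to 725 to 1058 in WT thymus, 189 to 609 in Atm-/- lymphomas and 287 to 1320 in Rag2c/c p53-/- lymphomas. Members of this list went different ways. Foxn1 was at 19 to 34 in WT thymus and 0 to 7 in the lymphomas, Psmb11 at 36 to 122 and 0 to 1, and Epcam at 221 to 283 in WT thymus, 39 to 85 in Atm-/- lymphomas and 22 to 875 in Rag2c/c p53-/- lymphomas. The values of Kdelr3 were 3, 3 and 1 in the WT thymuses, 31, 18, 130, 196 and 56 in the Atm-/- lymphomas and 223, 388, 115, 66 and 130 in the Rag2c/c p53-/- lymphomas. Kdelr3, a receptor that returns proteins to the endoplasmic reticulum, was higher by 4.28 ± 0.74 (adjusted p = 0.00054) and 5.61 ± 0.74 (adjusted p = 0.00013). It overlaps Ddx17, so some of its reads may belong to that gene. For low values such as the WT values of these genes, the size of the fold change depends on the pseudocount of 1.

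Among the lowest genes, Fam134b, a receptor for autophagy of the endoplasmic reticulum, stood at 1152, 1053 and 1164 in the WT thymuses, 54, 18, 23, 47 and 63 in the Atm-/- lymphomas and 37, 37, 501, 203 and 43 in the Rag2c/c p53-/- lymphomas. It was lower, at -4.89 ± 0.77 (adjusted p = 0.00028) in Atm-/- lymphomas and -3.61 ± 0.77 (adjusted p = 0.0029) in Rag2c/c p53-/- lymphomas, with all 10 below the thymuses. The values of Apol7e were 775, 692 and 762 in the WT thymuses, 54, 43, 26, 24 and 2 in the Atm-/- lymphomas and 11, 47, 25, 16 and 82 in the Rag2c/c p53-/- lymphomas. The values of Apol9b were 92, 81 and 102 in the WT thymuses, 3, 0, 2, 2 and 2 in the Atm-/- lymphomas and 4, 3, 2, 1 and 1 in the Rag2c/c p53-/- lymphomas. Both belong to the apolipoprotein L family, whose near-identical copies lie side by side and make the counts of each uncertain. Apol7e fell, at -5.09 ± 0.84 (adjusted p = 0.00037) and -4.67 ± 0.84 (adjusted p = 0.00094) in Atm-/- and Rag2c/c p53-/- lymphomas, and Apol9b stood at -5.18 ± 0.54 (adjusted p = 1.3e-05) and -4.95 ± 0.54 (adjusted p = 3.1e-05). The gene model Gm9522 was at 33, 393 and 291 in the thymuses and at 0 to 2 in the lymphomas, and the gene model I830127L07Rik at 22, 52 and 31 in the thymuses and 0 to 4 in the lymphomas. Their thymus values came from C57BL/6 mice alone, and strain cannot be told apart here. The values of Angpt1 were 537, 474 and 531 in the WT thymuses, 162, 212, 105, 273 and 71 in the Atm-/- lymphomas and 2, 17, 186, 0 and 396 in the Rag2c/c p53-/- lymphomas. Angpt1, which encodes the ligand angiopoietin 1 of the receptor Tie2, fell in Rag2c/c p53-/- lymphomas, at -4.62 ± 1.52 (adjusted p = 0.029), a call lost without WT thymus 1, 2 or 3 or Rag2c/c p53-/- lymphoma 1 (adjusted p up to 0.082) and without the 3 shallow libraries (adjusted p = 0.11). In Atm-/- lymphomas it stood at -1.79 ± 1.52 (adjusted p = 0.35).

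**Figure D4:**
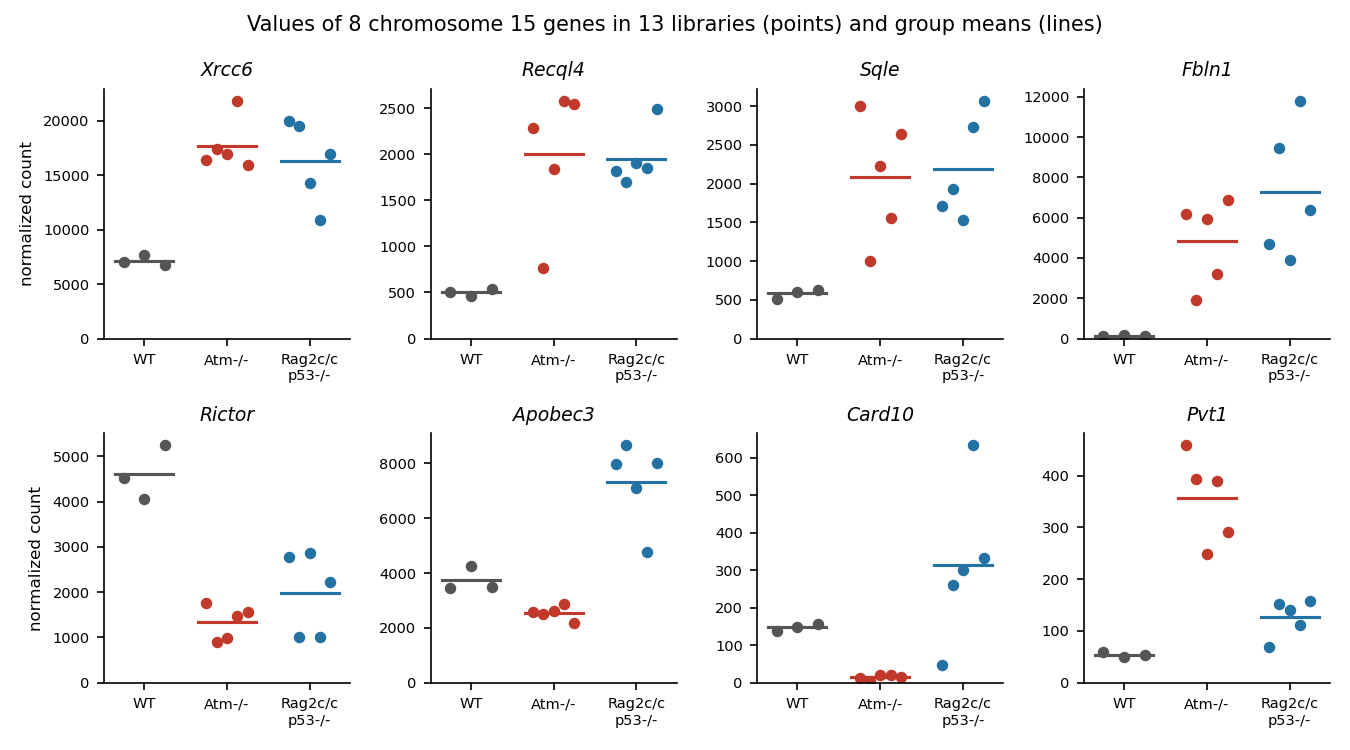
Normalised counts of 8 chromosome 15 genes in the 13 libraries (points) with group means (lines), on a linear axis that starts at 0 in each panel. Xrcc6 lies at 6768 to 7696 in WT thymus and 10864 to 21818 in the lymphomas, and Rictor at 4057 to 5245 and 909 to 2858.

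The genes are next taken by what they do, in lists drawn from knowledge of the genes. Of 17 genes for genome maintenance and cohesin, 15 passed the filter, of which 9 (60%) were higher and 3 (20%) lower in Atm-/- lymphomas and 9 (60%) higher and 1 (6.67%) lower in Rag2c/c p53-/- lymphomas at any fold, with median log2 fold changes of 0.72 and 0.946, beside 0.388 and 0.397 over the 561 genes and -0.0191 and -0.0176 over all tested genes. The shares called at any fold over all tested genes, 21% higher and 23.6% lower in Atm-/- and 17.5% and 19.7% in Rag2c/c p53-/- lymphomas, are the background of this and the following lists. All lists hold chromosome 15 genes alone. Over the 561 genes the shares were 34.9% higher and 11.9% lower in Atm-/- and 33.3% and 10.5% in Rag2c/c p53-/- lymphomas. A list above the genome can thus lie under its own chromosome. Recql4, Ncaph2, Pfkm, Skp2, Ptger4 and Hdac7, named below, each overlap another gene with counts, so part of their reads may be shared. Xrcc6 encodes Ku70, which binds DNA ends for non-homologous end joining (chromosome 15 from 81987835 to 82040085). The values of Xrcc6 were 6983, 7696 and 6768 in the WT thymuses, 16359, 17410, 16966, 21818 and 15921 in the Atm-/- lymphomas and 20011, 19528, 14308, 10864 and 16981 in the Rag2c/c p53-/- lymphomas. All 10 lymphomas were above all thymuses, by 1.30 ± 0.19 (adjusted p = 0.00016) in Atm-/- lymphomas and 1.16 ± 0.19 (adjusted p = 0.00052) in Rag2c/c p53-/- lymphomas. The gene overlaps Desi1, and reads in the overlap may be shared. The values of Recql4 were 509, 461 and 537 in the WT thymuses, 2291, 767, 1838, 2580 and 2545 in the Atm-/- lymphomas and 1816, 1695, 1905, 1855 and 2491 in the Rag2c/c p53-/- lymphomas. Recql4 encodes a helicase of DNA replication and repair, and was higher by 1.88 ± 0.32 (adjusted p = 0.00049) and 1.95 ± 0.32 (adjusted p = 0.00054), with Atm-/- lymphoma 2 the lowest of the 10.

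Gtse1, expressed in G2 and M phase, rose by 1.65 ± 0.17 (adjusted p = 1.1e-05) in Atm-/- lymphomas and 1.40 ± 0.17 (adjusted p = 6e-05) in Rag2c/c p53-/- lymphomas, and the centromere protein gene Cenpm by 1.51 ± 0.28 (adjusted p = 0.0008) and 1.44 ± 0.28 (adjusted p = 0.0015). Tonsl, which acts at damaged replication forks, rose by 0.96 ± 0.16 (adjusted p = 0.00042) and 0.95 ± 0.16 (adjusted p = 0.00064). Nsmce2, the SUMO ligase of the SMC5/6 complex, rose by 0.93 ± 0.17 (adjusted p = 0.00076) and 1.06 ± 0.17 (adjusted p = 0.00045), and the condensin subunit Ncaph2 by 0.72 ± 0.17 (adjusted p = 0.0049) and 0.89 ± 0.17 (adjusted p = 0.0016). The cohesin loader Nipbl went the other way. The values of Nipbl were 9712, 9798 and 11190 in the WT thymuses, 6181, 5661, 4367, 6355 and 7366 in the Atm-/- lymphomas and 5517, 5819, 6964, 4605 and 6668 in the Rag2c/c p53-/- lymphomas. All 10 lymphomas were below the thymuses, at -0.79 ± 0.18 (adjusted p = 0.0029) and -0.80 ± 0.18 (adjusted p = 0.0034). The cohesin subunit Rad21 did not pass in either, at 0.21 ± 0.26 (adjusted p = 0.52) and 0.47 ± 0.26 (adjusted p = 0.17). The values of Dmc1 were 74, 52 and 62 in the WT thymuses, 0, 2, 2, 0 and 0 in the Atm-/- lymphomas and 2, 111, 95, 4 and 17 in the Rag2c/c p53-/- lymphomas. Dmc1 encodes the meiotic recombinase and fell in Atm-/- lymphomas, at -5.34 ± 1.06 (adjusted p = 0.0014). It stood at -1.68 ± 1.06 (adjusted p = 0.23) in Rag2c/c p53-/- lymphomas, where lymphomas 2 and 3 lay above the thymuses and the other 3 below.

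Of 20 genes for translation and RNA binding, 13 (65%) were higher and 1 (5%) lower in Atm-/- lymphomas and 12 (60%) higher and 1 (5%) lower in Rag2c/c p53-/- lymphomas, with medians of 0.654 and 0.575. All 4 eIF3 subunit genes on the list rose. The values of Eif3l were 4536, 5224 and 4396 in the WT thymuses, 10846, 8013, 11356, 11670 and 9589 in the Atm-/- lymphomas and 7109, 9247, 7868, 8809 and 9140 in the Rag2c/c p53-/- lymphomas. Every lymphoma was above every thymus, by 1.12 ± 0.15 (adjusted p = 9e-05) and 0.83 ± 0.15 (adjusted p = 0.00096). Eif3h rose by 1.02 ± 0.17 (adjusted p = 0.00045) and 0.91 ± 0.17 (adjusted p = 0.0013), Eif3d by 0.97 ± 0.16 (adjusted p = 0.0003) and 0.97 ± 0.16 (adjusted p = 0.00043) and Eif3e by 0.68 ± 0.16 (adjusted p = 0.0036) and 0.47 ± 0.16 (adjusted p = 0.033). For Eif3e the call in Rag2c/c p53-/- lymphomas was lost without WT thymus 1 or 3 or Rag2c/c p53-/- lymphoma 2, 3, 4 or 5 (adjusted p up to 0.12) and without the 3 shallow libraries. Eef1d, a subunit of the elongation factor eEF1, rose by 1.36 ± 0.20 (adjusted p = 0.00018) and 1.08 ± 0.20 (adjusted p = 0.0012). Nhp2l1, a protein of snRNPs and snoRNPs, rose by 1.20 ± 0.19 (adjusted p = 0.00028) and 0.96 ± 0.19 (adjusted p = 0.0018).

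The values of Pabpc1 were 18055, 33005 and 18811 in the WT thymuses, 41699, 42489, 59788, 65896 and 45335 in the Atm-/- lymphomas and 32580, 47640, 39406, 48498 and 39969 in the Rag2c/c p53-/- lymphomas. Pabpc1 encodes the poly(A) binding protein, which has pseudogene copies, so that its counts are uncertain. It was higher by 1.16 ± 0.23 (adjusted p = 0.0012) and 0.88 ± 0.23 (adjusted p = 0.0085), and the latter call was lost without WT thymus 1 or 3 (adjusted p up to 0.055). WT thymus 2 was far above the other thymuses for this gene and overlapped the lymphomas. The values of Drosha were 2734, 2907 and 2663 in the WT thymuses, 6068, 2617, 5952, 5902 and 5918 in the Atm-/- lymphomas and 4970, 5508, 6960, 5951 and 6602 in the Rag2c/c p53-/- lymphomas. Drosha, the nuclease that starts microRNA processing, rose by 0.87 ± 0.24 (adjusted p = 0.011) and 1.11 ± 0.24 (adjusted p = 0.0035). Atm-/- lymphoma 2 stayed at the level of the thymuses for Drosha. Tnrc6b, a partner of Argonaute in microRNA silencing, fell, at -0.82 ± 0.22 (adjusted p = 0.0087) and -0.71 ± 0.22 (adjusted p = 0.021). Its call in Atm-/- lymphomas was lost without WT thymus 3 (adjusted p up to 0.051) and that in Rag2c/c p53-/- lymphomas without WT thymus 3 (adjusted p up to 0.1) and with GC-corrected values. Eif4b and Hnrnpa1 rose in Atm-/- lymphomas, by 0.62 ± 0.17 (adjusted p = 0.01) and 0.59 ± 0.18 (adjusted p = 0.017), and stood at 0.40 ± 0.17 (adjusted p = 0.082) and 0.38 ± 0.18 (adjusted p = 0.11) in Rag2c/c p53-/- lymphomas. For Hnrnpa1 the call was lost without WT thymus 1 or 3 (adjusted p up to 0.078). Among RNA helicases, Ddx17 did not pass, at -0.34 ± 0.20 (adjusted p = 0.17) and -0.40 ± 0.20 (adjusted p = 0.13).

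Of 20 genes for metabolism and amino acid transport, 8 (40%) were higher and 1 (5%) lower in Atm-/- lymphomas and 12 (60%) higher and 1 (5%) lower in Rag2c/c p53-/- lymphomas, with medians of 0.392 and 0.639. The values of Sqle were 513, 604 and 632 in the WT thymuses, 3008, 996, 2232, 1555 and 2637 in the Atm-/- lymphomas and 1708, 1925, 1530, 2726 and 3069 in the Rag2c/c p53-/- lymphomas. Sqle encodes squalene epoxidase of the cholesterol pathway, and was higher by 1.74 ± 0.33 (adjusted p = 0.00096) and 1.86 ± 0.33 (adjusted p = 0.00084). The values of Soat2 were 22, 19 and 22 in the WT thymuses, 455, 71, 287, 239 and 393 in the Atm-/- lymphomas and 83, 247, 222, 222 and 381 in the Rag2c/c p53-/- lymphomas. Soat2, which esterifies cholesterol, was higher by 3.48 ± 0.56 (adjusted p = 0.00034) and 3.25 ± 0.56 (adjusted p = 0.00078), and Atm-/- lymphoma 2 was the lowest lymphoma for both. The values of Cyc1 were 2450, 2511 and 2495 in the WT thymuses, 5500, 5175, 6213, 5883 and 5571 in the Atm-/- lymphomas and 4339, 6866, 4247, 5592 and 5575 in the Rag2c/c p53-/- lymphomas. Cyc1, the cytochrome c1 of respiratory complex III, rose by 1.19 ± 0.15 (adjusted p = 7.2e-05) and 1.07 ± 0.15 (adjusted p = 0.00022). The phosphofructokinase gene Pfkm rose by 1.09 ± 0.16 (adjusted p = 0.00019) and 1.10 ± 0.16 (adjusted p = 0.00027) and Adsl of purine synthesis by 0.84 ± 0.16 (adjusted p = 0.0011) and 0.96 ± 0.16 (adjusted p = 0.00063). Gcat, for threonine breakdown, rose in Rag2c/c p53-/- lymphomas by 1.77 ± 0.44 (adjusted p = 0.0071) and stood at 0.97 ± 0.44 (adjusted p = 0.089) in Atm-/- lymphomas. The glutamate transporter gene Slc1a3 fell, at -1.57 ± 0.42 (adjusted p = 0.0084) and -1.48 ± 0.42 (adjusted p = 0.014), the latter call being lost without WT thymus 1 or 3 (adjusted p up to 0.066).

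Of 14 genes listed for protein turnover, 13 belonged to the set, of which 5 (38.5%) were higher and 1 (7.69%) lower in Atm-/- lymphomas and 4 (30.8%) higher and 2 (15.4%) lower in Rag2c/c p53-/- lymphomas, with medians of 0.281 and 0.212. The values of Skp2 were 907, 945 and 997 in the WT thymuses, 2099, 1528, 2495, 2437 and 2686 in the Atm-/- lymphomas and 2333, 1337, 1968, 2683 and 2093 in the Rag2c/c p53-/- lymphomas. Skp2 encodes the F-box protein that marks the cell cycle inhibitor p27 for breakdown, and rose by 1.22 ± 0.22 (adjusted p = 0.00075) and 1.10 ± 0.22 (adjusted p = 0.002). Fbxl6, another F-box gene, rose by 1.19 ± 0.18 (adjusted p = 0.00017) and 0.79 ± 0.18 (adjusted p = 0.0037). The values of Fbxo32 were 1022, 958 and 997 in the WT thymuses, 593, 329, 330, 540 and 214 in the Atm-/- lymphomas and 302, 233, 681, 190 and 412 in the Rag2c/c p53-/- lymphomas. Fbxo32, the muscle F-box gene also called atrogin 1, fell in both, at -1.40 ± 0.40 (adjusted p = 0.012) and -1.60 ± 0.40 (adjusted p = 0.0068).

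Of 25 genes of chromatin and transcription, 6 (24%) were higher and 6 (24%) lower in Atm-/- lymphomas, near the 21% and 23.6% of all tested genes. In Rag2c/c p53-/- lymphomas 7 (28%) were higher and 5 (20%) lower, beside 17.5% and 19.7%, and the medians were -0.149 and -0.104. The values of Hsf1 were 1558, 1891 and 1545 in the WT thymuses, 3713, 3439, 4051, 4580 and 4015 in the Atm-/- lymphomas and 2874, 3671, 3015, 3259 and 3483 in the Rag2c/c p53-/- lymphomas. Hsf1, the regulator of heat shock genes, was higher by 1.25 ± 0.14 (adjusted p = 2e-05) and 0.97 ± 0.14 (adjusted p = 0.00019). Atf4 of the amino acid and stress response rose by 1.12 ± 0.26 (adjusted p = 0.0035) and 1.08 ± 0.26 (adjusted p = 0.0054), and Yaf2, a partner of Polycomb complex PRC1, by 1.01 ± 0.17 (adjusted p = 0.00045) and 1.12 ± 0.17 (adjusted p = 0.00033). The values of Kmt2d were 11356, 11730 and 15799 in the WT thymuses, 8733, 8824, 6609, 8989 and 8088 in the Atm-/- lymphomas and 9660, 8663, 7783, 4630 and 7551 in the Rag2c/c p53-/- lymphomas. Kmt2d, a histone H3 lysine 4 methyltransferase, was lower, at -0.64 ± 0.21 (adjusted p = 0.026) and -0.78 ± 0.21 (adjusted p = 0.012), the first call being lost without WT thymus 3 or Atm-/- lymphoma 3 (adjusted p up to 0.14), and the second without WT thymus 3 (adjusted p up to 0.074). Phf20l1, a reader of methylated lysine, fell, at -0.76 ± 0.16 (adjusted p = 0.002) and -0.93 ± 0.16 (adjusted p = 0.00073), the first call being lost with GC-corrected values (adjusted p = 0.07). Hdac7, a histone deacetylase of thymocytes, stood at -0.45 ± 0.17 (adjusted p = 0.043) in Atm-/- lymphomas, a call lost without WT thymus 2 or 3, Atm-/- lymphoma 1, 2, 3 or 5 or Rag2c/c p53-/- lymphoma 5 (adjusted p up to 0.2) and without the 3 shallow libraries (adjusted p = 0.22). The acetyltransferase gene Ep300 lay below the thymuses in all 10 lymphomas but did not pass, at -0.75 ± 0.34 (adjusted p = 0.083) and -0.73 ± 0.34 (adjusted p = 0.1).

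Of 27 genes for lymphocyte signalling and adhesion, 7 (25.9%) were higher and 4 (14.8%) lower in Atm-/- lymphomas and 6 (22.2%) higher and 3 (11.1%) lower in Rag2c/c p53-/- lymphomas, with medians of 0.0284 and -0.272. The list holds 3 genes of the mTOR complexes, which went different ways. Rictor encodes the subunit that defines mTORC2 (chromosome 15 from 6708381 to 6800398). The values of Rictor were 4514, 4057 and 5245 in the WT thymuses, 1763, 909, 979, 1463 and 1570 in the Atm-/- lymphomas and 2786, 1020, 2858, 1005 and 2231 in the Rag2c/c p53-/- lymphomas. It was lower in all 10 lymphomas, at -1.82 ± 0.36 (adjusted p = 0.0014) and -1.36 ± 0.36 (adjusted p = 0.01). Prr5, another mTORC2 subunit, was higher in all 10. The values of Prr5 were 131, 153 and 143 in the WT thymuses, 1910, 1032, 1228, 1115 and 1886 in the Atm-/- lymphomas and 282, 1331, 870, 731 and 1054 in the Rag2c/c p53-/- lymphomas. The log2 fold change was 3.28 ± 0.40 (adjusted p = 4.4e-05) in Atm-/- lymphomas and 2.41 ± 0.40 (adjusted p = 0.00056) in Rag2c/c p53-/- lymphomas. The values of Deptor were 292, 253 and 356 in the WT thymuses, 1071, 637, 152, 2732 and 147 in the Atm-/- lymphomas and 88, 128, 105, 49 and 202 in the Rag2c/c p53-/- lymphomas. Deptor, an inhibitor of both mTOR complexes, passed in neither lymphoma against WT thymus, at 0.83 ± 0.80 (adjusted p = 0.41) and -1.52 ± 0.80 (adjusted p = 0.15).

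The values of Lgals1 were 1956, 2774 and 1838 in the WT thymuses, 8653, 9294, 12818, 10207 and 9796 in the Atm-/- lymphomas and 6019, 9098, 2832, 5544 and 6235 in the Rag2c/c p53-/- lymphomas. Lgals1 encodes galectin 1, which binds glycans of T cells, and was higher by 2.22 ± 0.29 (adjusted p = 7e-05) and 1.37 ± 0.29 (adjusted p = 0.0026). Fibroblasts and myeloid cells also express it. The myeloid markers, 5 of 6 found, summed to 4081 to 5131 in WT thymus, 6641 to 11478 in Atm-/- lymphomas and 3989 to 8504 in Rag2c/c p53-/- lymphomas, and their part in the result was not tested. Parvg, which links integrins to actin in blood cells, rose by 0.95 ± 0.20 (adjusted p = 0.0018) and 0.82 ± 0.20 (adjusted p = 0.0061). Ptger4, a receptor of prostaglandin E2, fell in Atm-/- lymphomas, at -1.46 ± 0.39 (adjusted p = 0.0089) and stood at -0.50 ± 0.39 (adjusted p = 0.34) in Rag2c/c p53-/- lymphomas. The values of Nr4a1 were 3559, 4441 and 3561 in the WT thymuses, 1183, 2583, 366, 1747 and 378 in the Atm-/- lymphomas and 536, 351, 5346, 1168 and 331 in the Rag2c/c p53-/- lymphomas. Nr4a1, which T cell receptor signals induce, was low in 9 of 10 lymphomas, with Rag2c/c p53-/- lymphoma 3 above the thymuses, and did not pass at -2.02 ± 0.84 (adjusted p = 0.065) and -2.21 ± 0.84 (adjusted p = 0.053). Rac2, a GTPase of blood cells, was higher in Atm-/- lymphomas at 0.68 ± 0.26 (adjusted p = 0.046), a call lost without WT thymus 1 or 3, Atm-/- lymphoma 1, 2, 3 or 4 or Rag2c/c p53-/- lymphoma 3, 4 or 5 (adjusted p up to 0.18) and with GC-corrected values.

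The Ly6 family encodes small proteins anchored in the membrane by glycolipid and used as surface markers of lymphocytes. Of 16 genes listed, 10 passed the filter, of which 4 (40%) were higher and 2 (20%) lower in Atm-/- lymphomas and 3 (30%) higher and 2 (20%) lower in Rag2c/c p53-/- lymphomas, with medians of 0.625 and -0.352. Members of the family are alike in sequence, and uniquely mapped reads leave the counts of the closest, Ly6a, Ly6c1 and Ly6c2, uncertain. The values of Ly6c1 were 79, 65 and 71 in the WT thymuses, 6458, 2060, 11364, 226 and 9266 in the Atm-/- lymphomas and 2914, 4586, 1361, 407 and 4094 in the Rag2c/c p53-/- lymphomas. Ly6c1 was higher in every lymphoma, by 5.45 ± 1.09 (adjusted p = 0.0014) and 4.77 ± 1.09 (adjusted p = 0.0043), with Atm-/- lymphoma 4 and Rag2c/c p53-/- lymphoma 4 the lowest. Its neighbour Ly6c2 was lower in every lymphoma, at -1.97 ± 0.47 (adjusted p = 0.0042) and -2.28 ± 0.47 (adjusted p = 0.0022). The values of Ly6k were 366, 322 and 336 in the WT thymuses, 3476, 4410, 5579, 2486 and 6161 in the Atm-/- lymphomas and 69, 5370, 356, 12 and 512 in the Rag2c/c p53-/- lymphomas. Ly6k was above the thymuses in all Atm-/- lymphomas, at 3.62 ± 1.31 (adjusted p = 0.038), a call lost without WT thymus 1, 2 or 3 or Atm-/- lymphoma 1, 2, 3 or 5 (adjusted p up to 0.095). Among Rag2c/c p53-/- lymphomas it ranged from 12 to 5370 and did not pass, at -0.48 ± 1.31 (adjusted p = 0.8). The values of Ly6e were 13383, 25400 and 13364 in the WT thymuses, 28194, 39838, 39263, 34398 and 30169 in the Atm-/- lymphomas and 25703, 55560, 22950, 29306 and 24972 in the Rag2c/c p53-/- lymphomas. Ly6e was higher by 1.04 ± 0.28 (adjusted p = 0.0099) and 0.85 ± 0.28 (adjusted p = 0.031), the first call being lost without WT thymus 1 or 3 (adjusted p up to 0.057), and the second without WT thymus 1 or 3 (adjusted p up to 0.14) and with GC-corrected values. Lynx1 fell in all 10 lymphomas, at -1.66 ± 0.25 (adjusted p = 0.00021) and -2.14 ± 0.25 (adjusted p = 5.9e-05). The values of Ly6d were 3269, 4204 and 2927 in the WT thymuses, 4834, 4825, 3704, 3670 and 3083 in the Atm-/- lymphomas and 27, 4765, 1673, 653 and 3987 in the Rag2c/c p53-/- lymphomas. Ly6d, a marker of early lymphoid cells, ranged from 27 to 4765 within the Rag2c/c p53-/- lymphomas and did not pass, at 0.21 ± 1.21 (adjusted p = 0.9) and -1.93 ± 1.21 (adjusted p = 0.22). Ly6a, or Sca-1, did not pass either, at 1.33 ± 0.90 (adjusted p = 0.24) and -0.23 ± 0.90 (adjusted p = 0.86).

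**Figure D5:**
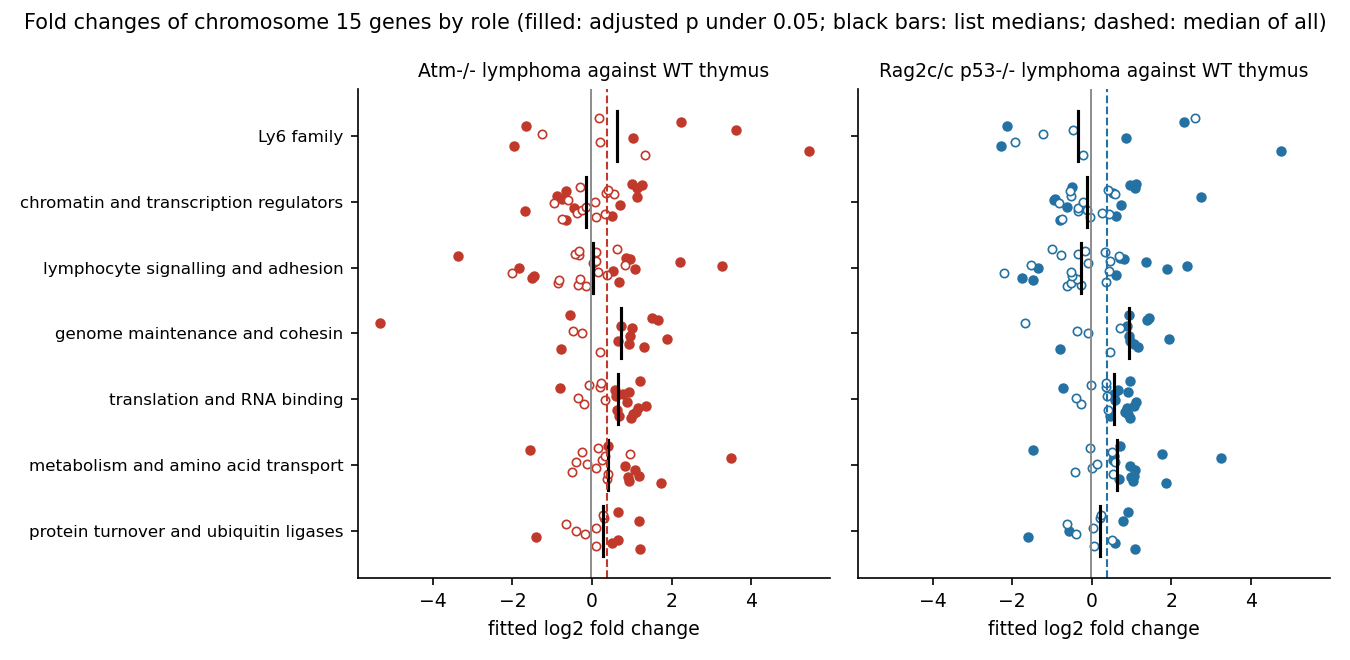
Fitted log2 fold change against WT thymus of each gene of 7 lists, for Atm-/- lymphomas on the left and Rag2c/c p53-/- lymphomas on the right, with filled points at an adjusted p under 0.05, black bars at list medians and a dashed line at the median of the 561 genes. Most points of the translation and genome maintenance lists lie above 0, with medians of 0.654 and 0.72 in Atm-/- lymphomas, and those of the chromatin list lie on both sides of 0, with a median of -0.149.

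Of the genes within 5 Mb of the start of Myc, 34 belonged to the set, of which 10 (29.4%) were higher and 4 (11.8%) lower in Atm-/- lymphomas and 8 (23.5%) higher and 5 (14.7%) lower in Rag2c/c p53-/- lymphomas, with medians of 0.485 and 0.353. These medians lay near those of the 561 genes. The values of Pvt1 were 59, 49 and 53 in the WT thymuses, 459, 393, 248, 389 and 291 in the Atm-/- lymphomas and 70, 152, 141, 112 and 158 in the Rag2c/c p53-/- lymphomas. Pvt1, a long noncoding RNA gene next to Myc, was higher in all 10 lymphomas, by 2.68 ± 0.31 (adjusted p = 3.4e-05) and 1.17 ± 0.31 (adjusted p = 0.01), and the second call was lost without the 3 shallow libraries (adjusted p = 0.056). On the other side of Myc lie Fam84b and the overlapping 9930014A18Rik. The values of Fam84b were 291, 231 and 321 in the WT thymuses, 2719, 313, 960, 1865 and 1319 in the Atm-/- lymphomas and 892, 547, 34, 369 and 687 in the Rag2c/c p53-/- lymphomas. Fam84b did not pass, at 2.04 ± 0.89 (adjusted p = 0.077) and 0.27 ± 0.89 (adjusted p = 0.83), and 9930014A18Rik was higher in Atm-/- lymphomas, at 3.13 ± 0.80 (adjusted p = 0.0066). The nearest gene of the set beyond Pvt1, Fam49b, stood at 0.42 ± 0.16 (adjusted p = 0.045) and 0.36 ± 0.16 (adjusted p = 0.086), and its call in Atm-/- lymphomas was lost without WT thymus 1, 2 or 3, Atm-/- lymphoma 1, 3, 4 or 5 or Rag2c/c p53-/- lymphoma 3, 4 or 5 (adjusted p up to 0.15).

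The last question was where the lymphomas differed from each other. At any fold, 16 of the 561 genes (2.85%) were higher in Atm-/- than in Rag2c/c p53-/- lymphomas against 5.13% of all tested genes, and 25 (4.46%) were lower against 6.48%. By the study's rule 12 (2.14%) were higher against 3.51% and 17 (3.03%) lower against 4.33%. Without the 3 shallow libraries, 31 (5.53%) were higher at any fold against 4.76% of all tested genes and 17 (3.03%) lower against 6.43%, so the share of higher genes lay under that of all tested genes with these libraries and above it without them. These counts moved with single libraries too, and shares over all tested genes, which can move as well, are not given for those settings. The number lower at any fold was 16 without WT thymus 1 or 3, 15 without Atm-/- lymphoma 1, 14 without Atm-/- lymphoma 4 or Rag2c/c p53-/- lymphoma 1 and 12 without Rag2c/c p53-/- lymphoma 5. By the study's rule it was 11 without WT thymus 1 or 3, 10 without Atm-/- lymphoma 1 or Rag2c/c p53-/- lymphoma 1 and 9 without Atm-/- lymphoma 4 or Rag2c/c p53-/- lymphoma 5. The number higher was 9 at any fold and 6 by the study's rule without Rag2c/c p53-/- lymphoma 1, and 7 by the study's rule without Atm-/- lymphoma 1. The median difference over the 561 genes was 0.00404, against 0.0219 over all tested genes. The strains of these groups differ in part, and strain cannot be told apart from genotype. The values of Gm10020 were 4, 10 and 1 in the WT thymuses, 393, 667, 462, 534 and 355 in the Atm-/- lymphomas and 4, 14, 0, 7 and 7 in the Rag2c/c p53-/- lymphomas. The values of Gm7125 were 0, 0 and 0 in the WT thymuses, 91, 105, 71, 160 and 114 in the Atm-/- lymphomas and 0, 0, 0, 0 and 1 in the Rag2c/c p53-/- lymphomas. Both gene models were counted in Atm-/- lymphomas and lay at or near 0 elsewhere, with adjusted p values of 3.5e-05 and 5e-07 between the lymphomas. Both passed the filter only through the Atm-/- lymphomas, so these p-values are given as a description. Since Gm7125 was listed at 0 in all WT thymuses, no fold against them is given.

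The values of Card10 were 139, 149 and 157 in the WT thymuses, 12, 5, 20, 21 and 16 in the Atm-/- lymphomas and 47, 260, 300, 634 and 333 in the Rag2c/c p53-/- lymphomas. Card10, a scaffold of NF-κB signalling, fell in Atm-/- lymphomas, at -3.38 ± 0.67 (adjusted p = 0.0014) against WT thymus. It was lower in Atm-/- than in Rag2c/c p53-/- lymphomas, at -4.06 ± 0.58 (adjusted p = 0.00066), with no overlap of the groups. The values of Apobec3 were 3441, 4252 and 3505 in the WT thymuses, 2580, 2514, 2610, 2879 and 2171 in the Atm-/- lymphomas and 7983, 8670, 7110, 4767 and 8009 in the Rag2c/c p53-/- lymphomas. Apobec3 encodes a cytidine deaminase that restricts retroviruses, and stood at -1.49 ± 0.16 (adjusted p = 4.7e-05) in Atm-/- relative to Rag2c/c p53-/- lymphomas. It was lower in Atm-/- lymphomas than in WT thymus, at -0.55 ± 0.18 (adjusted p = 0.026), a call lost without WT thymus 2 or 3 or Atm-/- lymphoma 5 (adjusted p up to 0.11) and without the 3 shallow libraries, and higher in Rag2c/c p53-/- lymphomas, by 0.95 ± 0.18 (adjusted p = 0.0015). Apobec3 overlaps Cbx7, whose reads may be shared. The values of Cbx7 were 1906, 2164 and 1910 in the WT thymuses, 743, 320, 718, 934 and 571 in the Atm-/- lymphomas and 1144, 1922, 2688, 702 and 2197 in the Rag2c/c p53-/- lymphomas. Cbx7, a Polycomb protein, was lower in Atm-/- lymphomas than in WT thymus, at -1.68 ± 0.40 (adjusted p = 0.0046), and than in Rag2c/c p53-/- lymphomas, at -1.33 ± 0.35 (adjusted p = 0.026), a call lost without Atm-/- lymphoma 5 or Rag2c/c p53-/- lymphoma 3 or 5 (adjusted p up to 0.063) and without the 3 shallow libraries (adjusted p = 0.1).

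The values of Pdgfb were 73, 68 and 87 in the WT thymuses, 32, 43, 20, 81 and 33 in the Atm-/- lymphomas and 152, 274, 256, 244 and 137 in the Rag2c/c p53-/- lymphomas. Pdgfb, a growth factor of mesenchymal cells, was lower in Atm-/- than in Rag2c/c p53-/- lymphomas, at -2.41 ± 0.36 (adjusted p = 0.00083). Against WT thymus it was higher in Rag2c/c p53-/- lymphomas, at 1.42 ± 0.41 (adjusted p = 0.016), a call lost without WT thymus 1 or 2 (adjusted p up to 0.058) and without the 3 shallow libraries (adjusted p = 0.084). Phf21b, a PHD finger gene, stood at -1.61 ± 0.36 (adjusted p = 0.012) in Atm-/- relative to Rag2c/c p53-/- lymphomas and was higher than in WT thymus by 2.75 ± 0.42 (adjusted p = 0.00033) in Rag2c/c p53-/- lymphomas. In the other direction, the homeobox gene Dbx2 was higher in Atm-/- lymphomas. The values of Dbx2 were 30, 16 and 23 in the WT thymuses, 281, 192, 428, 519 and 452 in the Atm-/- lymphomas and 27, 61, 98, 71 and 114 in the Rag2c/c p53-/- lymphomas. It differed by 2.38 ± 0.40 (adjusted p = 0.0022) between the lymphomas and by 3.92 ± 0.47 (adjusted p = 3.7e-05) between Atm-/- lymphomas and WT thymus. Cpq, a plasma carboxypeptidase gene, differed by 2.23 ± 0.29 (adjusted p = 0.00027) and Pvt1 by 1.51 ± 0.27 (adjusted p = 0.0033). Chadl, a matrix protein gene that overlaps L3mbtl2, differed by 2.16 ± 0.56 (adjusted p = 0.024), a call lost without Atm-/- lymphoma 4 or Rag2c/c p53-/- lymphoma 1 (adjusted p up to 0.06). Deptor differed by 2.35 ± 0.69 (adjusted p = 0.043), a call lost without WT thymus 1, 2 or 3, Atm-/- lymphoma 1, 2 or 4 or Rag2c/c p53-/- lymphoma 1, 2, 3 or 4 (adjusted p up to 0.1) and without the 3 shallow libraries (adjusted p = 0.11).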

How the data were processed

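RNA was taken from single-cell suspensions of 10 thymic lymphomas and 3 WT thymuses, made into stranded mRNA libraries and sequenced. The paper's methods describe the WT thymuses, and the lymphomas were assumed to have been handled alike. The authors mapped reads with STAR 2.4.0g1 on GRCm38, took out duplicates with Picard, kept uniquely mapped reads, counted them per Ensembl gene with HTSeq-count and normalized them with DESeq2 1.6.3. The strand setting of the count is not given in the sources used here. The deposited values are scores, namely normalized counts that the authors scaled by size factors and then rounded to integers, so tests of raw counts were not run. The table also holds the authors' group means, fold changes, p-values and dispersions of each lymphoma against WT thymus, which were not used, and its 13 columns of libraries were all used.

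Groups follow the labels. Genes at 10 or more in at least 3 of 13 libraries were kept (15872). log2(value + 1) of all 13 libraries was fitted by group with limma 3.58.1 (R 4.3.3), using a trend and robust moderation, and p-values were adjusted by Benjamini and Hochberg over all 15872 genes. Fold changes are on this scale, which understates low genes. p-values rest on 1 estimate per gene of the spread between mice, shared by the 3 groups. Those between the lymphomas thus also use the WT thymuses, which were more alike (r of 0.979 to 0.996) than the lymphomas. The fit was tested on simulated data. The genes and lists were chosen with earlier results of these data known, and no list was tested as a set. Genes named are the 5 highest and 5 lowest per comparison among calls by the study's rule whose groups did not overlap, the 10 of highest mean, genes of the role lists, and the nearest to Myc; not all of them are printed, and some results are not reported here. Order along the chromosome follows gene starts in the table (GRCm38). Correction for G and C content subtracted, in each library, the median log2 difference from WT of genes of other chromosomes in the same of 10 bins of G and C content. Alternatives covered the pseudocount (0.5 and 4), the filter (a mean of 100, or none), the scaling, moderation in limma, the groups in the fit, genes left out by name, the correction for G and C content and libraries left out.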

Additional observations from a re-analysis of the deposited data

Results flagged for a closer look

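In 170 groups of 5 lymphomas looked at (the shift of chromosome 15 and 84 named genes given in the text, in each lymphoma group), 18 held a lymphoma far from the other 4, by Dixon's ratio against a critical value of 0.71, and chance gives about 1 in 20 groups. The shift of chromosome 15 in Atm-/- lymphoma 2, 0.127, was such a value, with a ratio of 0.756. Atm-/- lymphoma 2 was also the low value for Drosha (2617), Rad21 (5232), Eif4b (11841), Ncaph2 (5305), Recql4 (767) and Parvg (7684) and stood at 0 for Apol9b. It was among the shallow libraries, and the part of depth in these values was not tested. Xrcc6 was high in Atm-/- lymphoma 4 (21818), Adamts20 in Atm-/- lymphoma 1 (344), and Apol7e was low in Atm-/- lymphoma 5 (2). Among the Rag2c/c p53-/- lymphomas, lymphoma 2 was high for Cbx6 (6170) and Ly6e (55560), and lymphoma 3 low for Ly6c2 (44) and Fam84b (34). The gene models Gm9522 (2 in Atm-/- lymphoma 4, 1 in Rag2c/c p53-/- lymphoma 5) and Gm7125 (1 in Rag2c/c p53-/- lymphoma 5) were counted at or near a single read in 1 library of a group otherwise at 0.

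Of these 84 genes, chosen in part for such differences, 18 had a difference between the lymphomas that passed its test (limma, adjusted p over all tested genes). Over all 561 genes, 16 were higher (2.85%, against 5.13% of all tested genes) and 25 lower (4.46%, against 6.48%). The log2 difference of Atm-/- from Rag2c/c p53-/- lymphomas was positive for Gm7125 (6.52), Gm10020 (6.43), Ly6k (4.1), Nov (3.79), Dbx2 (2.38), Deptor (2.35), Cpq (2.23), Chadl (2.16), Pvt1 (1.51) and Lgals1 (0.853). It was negative for Card10 (-4.06), Dmc1 (-3.66), Pdgfb (-2.41), Zdhhc25 (-2.33), Phf21b (-1.61), Apobec3 (-1.49), Cbx7 (-1.33) and Cbx6 (-0.634). For Gm7125 and Gm10020, whose values lie at or near 0 in Rag2c/c p53-/- lymphomas, the size depends on the pseudocount. The call was lost for Lgals1 without WT thymus 1 or 3, Atm-/- lymphoma 1, 2, 3, 4 or 5 or Rag2c/c p53-/- lymphoma 1, 3, 4 or 5 (adjusted p up to 0.084). That of Zdhhc25 was lost without WT thymus 1, 2 or 3, Atm-/- lymphoma 2 or 4 or Rag2c/c p53-/- lymphoma 1, 2, 3, 4 or 5 (adjusted p up to 0.093) and without the 3 shallow libraries (adjusted p = 0.1). Ly6k lost it without Atm-/- lymphoma 1, 2, 3, 4 or 5 or Rag2c/c p53-/- lymphoma 1 (adjusted p up to 0.08), Dmc1 without Atm-/- lymphoma 1 (adjusted p up to 0.052) and without the 3 shallow libraries (adjusted p = 0.055) and Cbx6 without Atm-/- lymphoma 1 or 5 (adjusted p up to 0.059).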

How the results depend on the processing

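Each of 12 counts of called genes, 3 median differences and 13 shifts was recomputed under each alternative. Counts stayed within 1.5 times the reported count in 122 of 132 values, medians moved by less than the spread between libraries in 31 of 33 and shifts in 63 of 65. For shifts this spread was the SD of the group, 0.178 for Atm-/- lymphomas, more than the whole shift of lymphoma 2, 0.127. The move of that lymphoma to -0.004 on correction for G and C content was therefore not counted as moved. For the median difference between the lymphomas the larger SD, 0.178, was allowed. That median was 0.00404 over the 561 genes and 0.0219 over all tested genes, so staying within the allowance says little about it. With a mean of at least 100 required, 413 chromosome 15 genes were left, from fewer genes tested. Of them, 29 were lower by the study's rule in Atm-/- lymphomas against WT thymus, beside 13.8% of all tested genes, and 22 in Rag2c/c p53-/- lymphomas. Between the lymphomas 7 were then higher and 7 lower by that rule and 13 lower at any fold. Shares over all tested genes are not given for the other counts of this setting. Without a filter the median difference, relative to all genes, fell to 0.214 in Atm-/- lymphomas and 0.235 in Rag2c/c p53-/- lymphomas, from 0.407 and 0.415, since genes near 0 in all groups entered. With only the compared groups in the fit, 10 genes were higher at any fold between the lymphomas, 7 were lower, and 5 were lower by the study's rule. Without the 3 shallow libraries these were 31 higher at any fold (5.53%, against 4.76% of all tested genes) and 8 lower by the study's rule (1.43%, against 4.05%), and the cause was not tested. Corrected for G and C content, the shift was -0.00716 in WT thymus 2 and 0.461 in Rag2c/c p53-/- lymphoma 2, while genes higher at any fold numbered 185 in Atm-/- lymphomas and 176 in Rag2c/c p53-/- lymphomas and lower ones 79 and 59. With each library left out in turn, Rag2c/c p53-/- lymphomas had 36 to 65 genes lower at any fold than WT thymus. Between the lymphomas 6 to 15 were then higher and 9 to 21 lower by the study's rule, and 9 to 23 higher and 12 to 27 lower at any fold. Shares over all tested genes moved with the setting too, so a count without its share does not tell chromosome 15 from the genome. Genes higher at any fold in Atm-/- lymphomas were 21% of all tested genes as reported. This share was 21.4% after correction for G and C content and 14.8% without WT thymus 3. Of 193 calls of all genes chosen by the naming rule, 128 were kept under every setting, 65 were lost under at least 1 and none changed direction. The 147 calls among genes given in the text lost 32. The estimated depth, down to 6.29 M reads, limits genes of low value most, where a single read was worth up to 3.42. No paired analysis was possible because each lymphoma and thymus came from a different mouse and replicate numbers mark no shared litter or day.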

Other observations

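The values of Endou were 8568, 10366 and 8012 in the WT thymuses, 14548, 20231, 17336, 17373 and 17388 in the Atm-/- lymphomas and 16210, 24820, 13024, 11399 and 15532 in the Rag2c/c p53-/- lymphomas. Endou encodes an endoribonuclease and was higher in all 10 lymphomas, by 0.95 ± 0.21 (adjusted p = 0.0029) in Atm-/- lymphomas and 0.81 ± 0.21 (adjusted p = 0.0096) in Rag2c/c p53-/- lymphomas (limma, log2 fold change ± SE). The second call was lost without WT thymus 3 (adjusted p up to 0.051). The values of Myh9 were 24816, 29432 and 27374 in the WT thymuses, 21630, 9498, 15422, 18922 and 21597 in the Atm-/- lymphomas and 22896, 14208, 26131, 13609 and 21033 in the Rag2c/c p53-/- lymphomas. Myh9, the heavy chain of non-muscle myosin IIA, stood at -0.70 ± 0.28 (adjusted p = 0.054) and -0.52 ± 0.28 (adjusted p = 0.16) and did not pass, with Atm-/- lymphoma 2 the lowest of all libraries. The values of Zdhhc25 were 0, 0 and 0 in the WT thymuses, 7, 0, 8, 0 and 6 in the Atm-/- lymphomas and 16, 14, 21, 28 and 9 in the Rag2c/c p53-/- lymphomas. Zdhhc25, of the palmitoyltransferase family, was listed at 0 in all WT thymuses, so no fold against them is given.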
